A study of Mus musculus with 24 samples.

Results

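The 9 genes described here encode the proteins through which a macrophage takes up arginine and turns it into nitric oxide, urea, ornithine and polyamines. They are Nos2, Gch1, Ass1, Asl, Arg1, Arg2, Slc7a1, Slc7a2 and Odc1. They were chosen by symbol, as the rows of the deposited count tables whose Ensembl identifier carries one of these names, and make up 9 of the 52636 genes counted. All 9 were among the 14681 genes left by the filter on low counts, Nos2 and Arg2 through the groups in which they were high. The data are bulk RNA-seq counts from 24 libraries of mouse bone marrow-derived macrophages grown with M-CSF, in 8 groups of 3. The 4 genotypes are named TBK1-WT control, TBK1-WT IKKe knockout, TBK1-cKD control and TBK1-cKD IKKe knockout, and each was left untreated or given R837 for 8 h. R837 (imiquimod) activates Toll-like receptor 7, and TBK1 and IKKe (gene Ikbke) are related kinases that act below such receptors. The study's text calls cKD a conditional knockout of TBK1, and the sources used here do not describe the allele, the driver of any Cre, the age of the mice or the way in which IKKe was removed. Wild-type C57BL/6N is the only strain the protocol names, also on the records of altered genotypes. Each library of a group came from a different mouse, and no label pairs libraries across groups.

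The libraries held 19.7 to 41.3 M counts (M, 1000000; median 31.4 M). All 12 macrophage markers checked were counted in every group, with summed levels of 20260 to 27710 counts per 1000000 gene counts (CPM) in untreated and 27770 to 35400 CPM in R837 libraries. The untreated libraries with the label TBK1-cKD IKKe knockout were at 26480 to 27710 CPM for this sum, above the 20260 to 22210 CPM of the other untreated libraries. Of 10 neutrophil markers, S100a8 made up most of a sum that reached 98.95 to 185 CPM in R837 libraries with the label TBK1-cKD IKKe knockout. In the other R837 libraries the sum was 20.2 to 40.0 CPM. Ly6g, Elane and Retnlg were at 0 with the label and in both TBK1-WT groups after R837. Camp was then at 2.29 to 2.35 CPM with the label, 0.912 to 1.32 CPM in the TBK1-WT groups and 0.752 to 3.60 CPM in TBK1-cKD control. S100a9 was at 0.0609 to 0.136 CPM with the label and 1.86 to 2.43 CPM in the TBK1-WT groups. It was lower in both TBK1-cKD groups than in the TBK1-WT groups, as were Ngp, Ltf and Mpo. The untreated neutrophil sum was 1.61 to 2.00 CPM with that label, 1.63 to 2.51 CPM in TBK1-cKD control and 6.41 to 10.3 CPM in the TBK1-WT groups. Stromal markers summed to 21.5 to 29.95 CPM in the untreated libraries with the label TBK1-cKD IKKe knockout and to 34.2 to 70.5 CPM in the other untreated libraries. Lymphocyte markers summed to 17.3 to 19.96 CPM there, with Cd3e, Cd3g, Cd8a and Ncr1 at 0, and to 7.83 to 14.8 CPM in the other untreated libraries. Dendritic cell, mast cell and basophil, and erythroid sums were at most 2.19 CPM in any library. The part of these markers in the results was not tested. As a check of the labels, Ikbke was at 67.7 to 68.2 CPM in untreated TBK1-WT control libraries and at 38.9 to 41.0 CPM in TBK1-WT IKKe knockout. The untreated libraries with the label TBK1-cKD IKKe knockout held 83.3 to 87.9 CPM of Ikbke, no lower than the 80.0 to 83.4 CPM of TBK1-cKD control, so this gene goes against their label. After R837 the libraries with that label held 62.6, 66.6 and 223 CPM, against 217 to 224 CPM in TBK1-cKD control. They were 401.2, 206.2 and 215.3 CPM in TBK1-WT control and 64.1 to 72.7 CPM in TBK1-WT IKKe knockout. The libraries at 223 and 401.2 CPM are the 2 R837 libraries of high nuclear RNA level described in the next paragraph. At that level the library of the label held less Ikbke than that of TBK1-WT control, and TBK1-cKD control had no R837 library there. This pair is a single library of each and was not tested. Which part of either gene was deleted is not given, so reads from the rest of the gene may remain. Tbk1 was lower in TBK1-cKD control than in TBK1-WT control (log2 difference -0.45 ± 0.07 SE untreated, adjusted p = 0.000674 by edgeR, the test used throughout, which a difference passes at an adjusted p under 0.05). With the label TBK1-cKD IKKe knockout it was at -0.20 ± 0.07 (adjusted p = 0.0925). The group is therefore called the libraries with the label TBK1-cKD IKKe knockout throughout, and each direction drawn from it rests on that label.

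The libraries also fell into 2 levels of nuclear RNA (the mean log2 CPM of Malat1, Neat1 and Xist). All 12 untreated libraries and 2 R837 libraries (replicate 1 of TBK1-WT control and replicate 3 labelled TBK1-cKD IKKe knockout) were at 8.92 to 9.62, and the other 10 R837 libraries were at 5.14 to 5.44. Replicate numbers only name the libraries. Treatment and this level therefore run together outside these 2 libraries, and values within each level are given for Nos2, Arg1, Slc7a1 and Odc1.

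Nitric oxide is made from arginine by the inducible synthase Nos2, which needs tetrahydrobiopterin, a cofactor whose synthesis begins with Gch1. The citrulline left over is turned back into arginine by Ass1 and then Asl. The arginases Arg1 and Arg2 split the same substrate into urea and ornithine, and Odc1 makes the first polyamine, putrescine, from ornithine. Slc7a1 and Slc7a2 are cationic amino acid transporters that bring arginine into the cell. Nos2 is known as a marker of macrophages activated by microbial signals, and Arg1 as a marker of macrophages exposed to IL-4.

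Promoter sequence from the RefSeq table (build GRCm38.p6) was on hand for 4 of the 9 genes, Ass1, Gch1, Slc7a1 and Odc1. The 250 bases before the RefSeq start site of 3 of them are shown because these genes cover the range of behaviour described below: Ass1 and Gch1 rose with R837 in every genotype, and Slc7a1 stayed within a narrow range. Each runs 5′ to 3′ on the gene's own strand, at chr2:31470020-31470269 (plus strand) for Ass1, chr14:47189414-47189663 (minus strand) for Gch1 and chr5:148399905-148400154 (minus strand) for Slc7a1. Capitals mark motif matches.
Ass1: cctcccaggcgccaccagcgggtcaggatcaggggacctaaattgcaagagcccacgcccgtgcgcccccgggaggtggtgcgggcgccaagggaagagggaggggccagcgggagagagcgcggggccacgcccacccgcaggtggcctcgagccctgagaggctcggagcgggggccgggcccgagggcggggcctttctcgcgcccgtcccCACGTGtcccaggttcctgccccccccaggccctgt
Gch1: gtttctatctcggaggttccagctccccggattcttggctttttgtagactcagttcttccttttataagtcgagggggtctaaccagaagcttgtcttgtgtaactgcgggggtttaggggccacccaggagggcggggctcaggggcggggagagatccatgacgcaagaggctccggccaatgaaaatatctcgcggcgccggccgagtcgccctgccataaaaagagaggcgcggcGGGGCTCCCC
Slc7a1: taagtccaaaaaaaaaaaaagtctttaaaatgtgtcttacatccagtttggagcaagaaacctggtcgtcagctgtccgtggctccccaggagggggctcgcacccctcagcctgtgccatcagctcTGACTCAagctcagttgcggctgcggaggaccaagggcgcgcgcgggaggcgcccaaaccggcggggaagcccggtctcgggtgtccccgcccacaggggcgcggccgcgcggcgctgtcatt
Both strands were searched for the NF-kB consensus of 10 bases, the E-box CACGTG and the AP-1 type TGANTCA, and no match overlapped another. Gch1 held an NF-kB match whose first base is at -10 from the start site, a motif found in 3.90% of the 32851 promoter windows of this length in the table. Ass1 held an E-box at -36, found in 6.02% of windows, and Slc7a1 an AP-1 match at -123, found in 6.75%. These positions count from the RefSeq start site. For Ass1 the GENCODE gene begins earlier, at chr2:31470207, so the end of its window, with the E-box, lies within that gene. No letters of these motifs were in the window of Odc1 or in a second window of Slc7a1. A match describes letters and does not show binding.

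**Figure D1:**
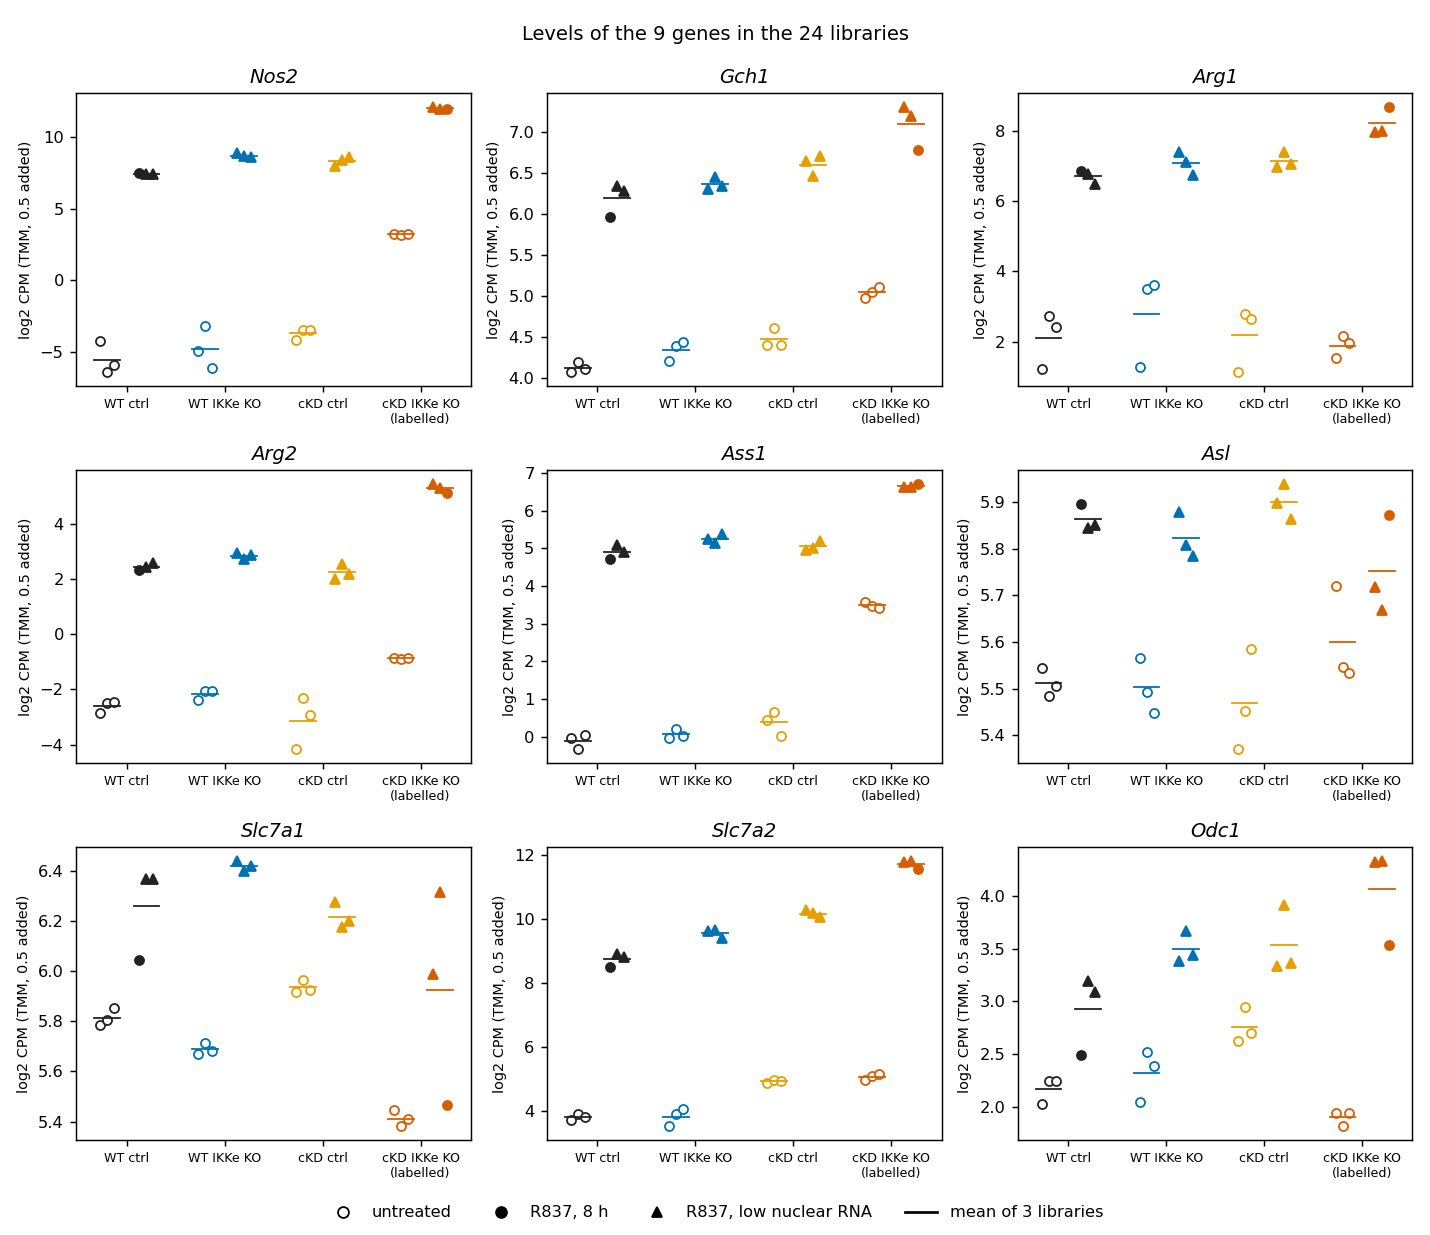
Level of each of the 9 genes in the 24 libraries, as log2 CPM with TMM scaling and 0.5 added to each count, by genotype on the horizontal axis (open symbols untreated, filled symbols R837, triangles R837 libraries of low nuclear RNA level, lines group means of 3). Nos2, Arg2, Ass1 and Gch1 sit higher in the untreated libraries with the label TBK1-cKD IKKe knockout than in the other 9 untreated libraries. Group means of Asl lie at 5.47 to 5.60 untreated and at 5.75 to 5.90 after R837. Without TMM scaling Asl spans 41.0 to 58.9 CPM over all 24.

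Nos2 (ENSMUSG00000020826, chr11:78920787-78960254, plus strand, protein coding) was all but silent in most untreated macrophages and very high after R837. Untreated TBK1-WT control libraries held 2, 0 and 0 counts of it, TBK1-WT IKKe knockout libraries 1, 2 and 0, and TBK1-cKD control libraries 2 in each. Untreated libraries with the label TBK1-cKD IKKe knockout held 353, 244 and 322 counts, or 10.1 ± 0.231 CPM (SD, n = 3). These 3 stood far above the other 9 untreated libraries, with no overlap. The ratio of pooled CPM to TBK1-WT control was 529.7, with a 95% counting interval of 146.2 to 4380 that covers counting error only. Of the 14681 genes tested, Nos2 had the largest fitted rise in that comparison (log2 8.83 ± 0.33 SE, adjusted p = 3.7e-14), a value that depends on the prior count because the control group holds 2 counts. Differences among the other 3 untreated groups were not detectable at this depth.

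After R837 the level of Nos2 was 176.7, 159.8 and 154.0 CPM in TBK1-WT control and 416.6, 364.3 and 351.6 CPM in TBK1-WT IKKe knockout. It was 232.7, 299.6 and 351.5 CPM in TBK1-cKD control and 3540, 3183 and 3395 CPM in the libraries with the label TBK1-cKD IKKe knockout. The order of the 4 R837 groups was thus TBK1-WT control, TBK1-cKD control, TBK1-WT IKKe knockout and, well apart, the labelled TBK1-cKD IKKe knockout, the middle groups meeting at 351.5 and 351.6 CPM. Against TBK1-WT control the log2 difference was 1.27 ± 0.12 (SE) in TBK1-WT IKKe knockout (adjusted p = 3.34e-06) and 0.92 ± 0.12 in TBK1-cKD control (adjusted p = 6.64e-05). It was 4.58 ± 0.14 with the label TBK1-cKD IKKe knockout (adjusted p = 2.44e-15). The ratio of pooled CPM, without TMM scaling, was 20.4. The difference that IKKe knockout made was larger in TBK1-cKD than in TBK1-WT by 2.39 ± 0.17 (interaction, adjusted p = 1.79e-08). A fit on the 2 groups alone ended the call for TBK1-cKD control (0.92, adjusted p = 0.0567). Within the high nuclear RNA level Nos2 stood at 3395 against 176.7 CPM, and within the low level at 3183 to 3540 against 154.0 to 159.8 CPM.

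The ratio of R837 to untreated Nos2 was 8637 in TBK1-WT control (counting interval 2391 to 71330), 11430 in TBK1-WT IKKe knockout (3911 to 55430) and 4305 in TBK1-cKD control (1978 to 11730). With the label TBK1-cKD IKKe knockout it was 332.5 (311.7 to 355.1). The smaller ratio in that group stood beside its higher untreated level, and its interval lies below the other 3. The fitted change of response was -4.25 ± 0.57 (adjusted p = 1.04e-05) and rests on the 2 counts of the untreated TBK1-WT control group: without replicate 1, which holds both, it was -6.62.

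Gch1 (ENSMUSG00000037580, chr14:47153895-47189413, minus strand), GTP cyclohydrolase 1, rose by similar amounts in every genotype. Untreated levels were 19.3, 21.01 and 19.8 CPM in TBK1-WT control and 33.9, 35.96 and 37.4 CPM in the libraries with the label TBK1-cKD IKKe knockout. TBK1-cKD control (24.8 ± 2.21) and TBK1-WT IKKe knockout (23.0 ± 1.59) lay between them and overlapped each other. After R837 the levels were 61.7, 76.2 and 71.99 CPM in TBK1-WT control, 75.4 ± 4.07 CPM for TBK1-WT IKKe knockout, 88.6 ± 7.27 CPM for TBK1-cKD control and 128, 118 and 95.1 CPM with the label TBK1-cKD IKKe knockout. The 4 responses to R837 spanned log2 2.02 to 2.13 (SE 0.12, adjusted p at most 3.70e-12), and no change of response passed the test. The libraries with the label TBK1-cKD IKKe knockout exceeded TBK1-WT control by 0.92 ± 0.12 (adjusted p = 7.44e-06) before and 0.91 ± 0.11 (adjusted p = 1.68e-06) after R837. TBK1-cKD control exceeded it by 0.41 ± 0.11 after R837 (adjusted p = 0.0286); this call ended without TBK1-WT control replicate 1 (0.29, adjusted p = 0.212), without TBK1-cKD control replicate 1 (0.39, adjusted p = 0.0636) and without its replicate 3 (0.35, adjusted p = 0.0823). The labelled group exceeded TBK1-cKD control after R837 by 0.51 ± 0.11 (adjusted p = 0.00153). Stretches of up to 76 bases of Gch1 are shared with 15 other genes at 98% identity or more.

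Ass1 (ENSMUSG00000076441, chr2:31470207-31520672, plus strand), argininosuccinate synthase, was like Nos2 highest with the label TBK1-cKD IKKe knockout, both before and after R837. It held 1.10, 0.889 and 1.17 CPM in untreated TBK1-WT control, 1.16 ± 0.0993 CPM for TBK1-WT IKKe knockout and 1.45 ± 0.325 CPM for TBK1-cKD control, and these 3 groups overlapped. In the untreated libraries with the label TBK1-cKD IKKe knockout it held 12.7, 12.01 and 11.4 CPM, all above the other 9. That level, as pooled CPM without TMM scaling, was 11.6 times that of TBK1-WT control and 42.7% of the R837-treated TBK1-WT control. The fitted log2 difference from untreated TBK1-WT control was 3.61 ± 0.14 (adjusted p = 3.66e-14). After R837 it reached 25.9, 31.7 and 27.6 CPM in TBK1-WT control, 34.8 ± 3.26 CPM for TBK1-WT IKKe knockout, 30.2 ± 2.46 CPM for TBK1-cKD control and 78.8, 79.0 and 90.2 CPM with the label TBK1-cKD IKKe knockout. The last group again lay above all others (log2 1.74 ± 0.10 over TBK1-WT control, adjusted p = 2.04e-11; interaction 1.24 ± 0.14, adjusted p = 4.33e-06). The response to R837 was 5.03 ± 0.14 in TBK1-WT control and 3.17 ± 0.11 in the labelled TBK1-cKD IKKe knockout, a change of response of -1.86 ± 0.17 (adjusted p = 7.14e-08).

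Reads of Ass1 cannot be fully separated from those of Gm5424, a processed pseudogene at chr10:62071123-62072362 that shares a stretch of 1240 bases with it at 98% identity or more. Gm5424 took most of the reads of the pair: the pooled share counted for Ass1 was 22.5% to 27.9% over the 8 groups. Gm5424 stood at 2.78 CPM in untreated TBK1-WT control and at 33.9 CPM in untreated libraries with the label TBK1-cKD IKKe knockout, and at 83.7 and 233 CPM after R837. The pair therefore kept nearly the same proportions while both moved, and the level of Ass1 alone is uncertain. With the 2 genes summed, each of the Ass1 differences given above stayed past the test, and untreated TBK1-cKD control then also exceeded TBK1-WT control (0.48, adjusted p = 0.0174).

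**Figure D2:**
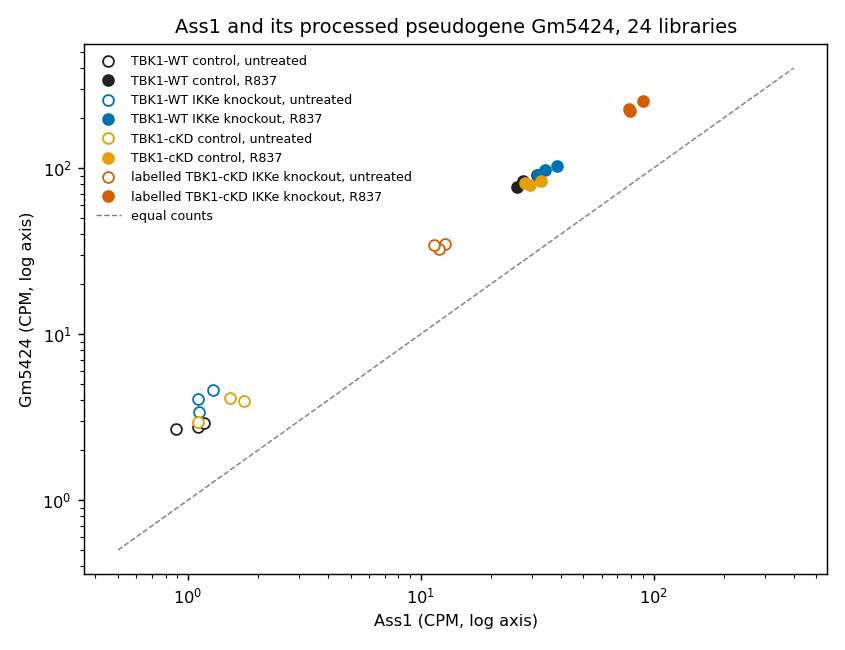
CPM of Ass1 (horizontal log axis) against its processed pseudogene Gm5424 (vertical log axis) in the 24 libraries, colored by genotype, open for untreated and filled for R837. All points lie above the dashed line of equal counts, and the untreated libraries with the label TBK1-cKD IKKe knockout (11.4 to 12.7 CPM of Ass1) lie between the other untreated and the R837 libraries.

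Asl (ENSMUSG00000025533, chr5:130011258-130029247, minus strand), which completes the recycling of citrulline to arginine, hardly moved. Its group means ran from 44.5 ± 5.04 CPM (R837, labelled TBK1-cKD IKKe knockout) to 55.3 ± 3.08 CPM (R837, TBK1-WT control), and every neighbour in the order of the 8 groups overlapped the next. This order is without TMM scaling. With it, the mean log2 CPM was 5.75 in the labelled R837 group and 5.47 to 5.60 in the untreated groups. The fitted responses to R837 were 0.35, 0.32, 0.43 and 0.15 (each ± 0.07) in the order TBK1-WT control, TBK1-WT IKKe knockout, TBK1-cKD control and labelled TBK1-cKD IKKe knockout, and all passed the test (adjusted p from 9.4e-06 to 0.0483). These small values depend on scaling: with plain library sizes in place of TMM the first 3 were 0.09, 0.01 and 0.14 with adjusted p of 0.313, 0.922 and 0.0961, and the last turned to -0.23 (adjusted p = 0.00835). The last also lost its call without R837 replicate 1 or 3 or untreated replicate 2 or 3 of its group (adjusted p 0.0548 to 0.239). The difference between genotypes passed in none of the 8 comparisons of levels.

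Arg1 (ENSMUSG00000019987, chr10:24915221-24927484, minus strand), the cytosolic arginase, rose with R837 beside Nos2. Untreated levels were 2.64, 7.49 and 6.06 CPM in TBK1-WT control, 2.77, 12.8 and 13.6 CPM in TBK1-WT IKKe knockout, 2.43, 7.72 and 6.83 CPM in TBK1-cKD control and 3.08, 4.84 and 4.22 CPM with the label TBK1-cKD IKKe knockout. The lowest library of each group was at 2.43 to 3.08 CPM, and all 4 groups overlapped. In each group it was replicate 1, and the labels do not say whether libraries given the same number share a mouse or a day. After R837 they were 114.5, 103.1 and 82.7 CPM, 153.5, 124.5 and 97.8 CPM, 113.9, 153.1 and 120.4 CPM, and 200, 203.8 and 353.9 CPM in the same order of groups. The first 3 R837 groups overlapped in that order of means, and the last lay above all of them. The responses were 4.49, 4.03, 4.84 and 6.35 (SE 0.46 to 0.52, adjusted p at most 1.42e-07).

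The excess of Arg1 with the label TBK1-cKD IKKe knockout over TBK1-WT control after R837 was 1.53 ± 0.40 (adjusted p = 0.00502), and 1.25 (adjusted p = 0.0168) without its highest library, replicate 3. Within the high nuclear RNA level Arg1 stood at 353.9 against 114.5 CPM, and within the low level at 200 to 203.8 against 82.7 to 103.1 CPM. Over TBK1-cKD control it was 1.10 ± 0.40 (adjusted p = 0.0374) and over TBK1-WT IKKe knockout 1.15 ± 0.40 (adjusted p = 0.0334). Both of these calls ended without that library (0.82, adjusted p = 0.134, and 0.87, adjusted p = 0.122). The first ended also without replicate 1, 2 or 3 of TBK1-cKD control (adjusted p = 0.103, 0.0541 and 0.0897), and the second without replicate 2 or 3 of TBK1-WT IKKe knockout (adjusted p = 0.0897 and 0.129). The change of response against TBK1-WT control, 1.87 ± 0.64 (adjusted p = 0.0479), was lost under 11 of 20 alternatives (1.52 to 2.00, adjusted p 0.0503 to 0.174), 9 of them leaving out 1 library: untreated or R837 replicate 2 or 3 of TBK1-WT control, any untreated library of the label, or its R837 replicate 2 or 3. The interaction did not pass (0.71 ± 0.56, adjusted p = 0.365).

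Arg2 (ENSMUSG00000021125, chr12:79130777-79156301, plus strand), the mitochondrial arginase, had few counts in untreated cells: 6, 7 and 5 in TBK1-WT control, 8, 5 and 8 in TBK1-WT IKKe knockout, 2, 5 and 3 in TBK1-cKD control and 20, 14 and 18 with the label TBK1-cKD IKKe knockout. The last group, at 0.572 ± 0.00808 CPM, was above the other 9 libraries. After R837 the levels were 4.99, 5.02 and 5.45 CPM in TBK1-WT control, 6.96, 5.93 and 6.61 CPM in TBK1-WT IKKe knockout, 3.64, 5.27 and 4.07 CPM in TBK1-cKD control and 35.3, 31.9 and 30.2 CPM in the labelled TBK1-cKD IKKe knockout. The first 3 lay close together and the last far above them. Its excess over TBK1-WT control was log2 1.79 ± 0.30 untreated (adjusted p = 0.000168) and 2.87 ± 0.13 after R837 (adjusted p = 6.42e-13), with an interaction of 2.67 ± 0.19 (adjusted p = 1.24e-08). The responses were 5.13, 5.10, 5.48 and 6.20 (SE 0.17 to 0.24), and the change of response with the label TBK1-cKD IKKe knockout missed the test (1.07 ± 0.36, adjusted p = 0.072). It passed without R837 replicate 3 of that label (1.15, adjusted p = 0.043). Vti1b and Gm48780 overlap exons of Arg2 on the opposite strand, and the kit used keeps no strand information, so a share of these reads cannot be told apart from theirs.

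Slc7a2 (ENSMUSG00000031596, chr8:40862396-40922308, plus strand), the cationic transporter CAT2, was graded by genotype. It held 15.3, 17.1 and 16.3 CPM in untreated TBK1-WT control, 13.2, 17.0 and 18.7 CPM in TBK1-WT IKKe knockout, 33.1, 35.1 and 33.7 CPM in TBK1-cKD control and 33.9, 37.5 and 38.8 CPM with the label TBK1-cKD IKKe knockout. The 2 TBK1-WT groups overlapped, as did the 2 TBK1-cKD groups, and the latter lay higher: log2 1.11 ± 0.12 for TBK1-cKD control (adjusted p = 8.16e-06) and 1.26 ± 0.12 for the labelled TBK1-cKD IKKe knockout (adjusted p = 1.28e-07). After R837 the groups separated fully in the same order, at 358, 453.8 and 418.9 CPM, 714, 726.9 and 621.5 CPM, 1122, 1056 and 965 CPM, and 2838, 2910 and 2594 CPM. Against TBK1-WT control the differences were 0.80 ± 0.11 (adjusted p = 0.000303), 1.41 ± 0.11 (adjusted p = 1.65e-07) and 2.97 ± 0.12 (adjusted p = 9.81e-14). The first ended in a fit on the 2 groups alone (0.80, adjusted p = 0.0919).

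The responses of Slc7a2 to R837 were 4.93, 5.71, 5.24 and 6.63 (SE 0.14). The change of response was 1.71 ± 0.17 with the label TBK1-cKD IKKe knockout (adjusted p = 1.48e-07) and 0.78 ± 0.17 in TBK1-WT IKKe knockout (adjusted p = 0.0505), which passed under 8 of 19 alternatives, among them without TBK1-WT control R837 replicate 2 (0.87, adjusted p = 0.0296), without TBK1-WT IKKe knockout untreated replicate 3 (0.91, adjusted p = 0.0244) and without its R837 replicate 3 (0.85, adjusted p = 0.0391). The interaction after R837 was 0.75 ± 0.16 (adjusted p = 0.00254). The lincRNA gene Gm26584 overlaps exons of Slc7a2 on the opposite strand, and without strand information a share of these reads cannot be told apart. Slc7a2 shares stretches of up to 475 bases at 98% identity or more with 6 genes, Gm26584 among them.

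Slc7a1 (ENSMUSG00000041313, chr5:148327410-148399904, minus strand), the transporter CAT1 that most cells express, stayed within 38.0 to 78.7 CPM in all 24 libraries. Untreated means were 64.3 ± 1.499 CPM in TBK1-WT control, 58.2 ± 0.953 CPM for TBK1-WT IKKe knockout, 67.8 ± 1.44 CPM for TBK1-cKD control and 45.9 ± 0.732 with the label TBK1-cKD IKKe knockout. The labelled group was the lowest, by log2 -0.40 ± 0.13 against TBK1-WT control (adjusted p = 0.0383), but leaving out any 1 of the 6 libraries ended the call (adjusted p 0.0814 to 0.115). After R837 it held 51.1, 64.2 and 38.0 CPM there, against 65.3, 77.3 and 76.4 CPM in TBK1-WT control. That difference was -0.30 ± 0.13 (adjusted p = 0.0743); it passed without TBK1-WT control replicate 1 (-0.41, adjusted p = 0.0241) and without the labelled replicate 2 (-0.52, adjusted p = 0.000863). Within the high nuclear RNA level the values were 38.0 and 65.3 CPM, and within the low level 51.1 to 64.2 and 76.4 to 77.3 CPM. The responses to R837 were 0.45, 0.73, 0.28 and 0.55 (SE 0.13), of which that of TBK1-cKD control missed the test (adjusted p = 0.0537). With nuclear RNA level as a term they were 0.12, 0.23, -0.22 and 0.19, and the first no longer passed (adjusted p = 0.214). With plain library sizes the response of TBK1-WT control (0.18, adjusted p = 0.156) and that of the labelled TBK1-cKD IKKe knockout (0.15, adjusted p = 0.226) no longer passed.

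Odc1 (ENSMUSG00000011179, chr12:17544794-17551505, plus strand), ornithine decarboxylase, was low throughout. Untreated libraries held 4.67, 5.39 and 5.39 CPM in TBK1-WT control, 5.66 ± 0.881 CPM for TBK1-WT IKKe knockout, 7.51 ± 0.889 CPM for TBK1-cKD control and 4.09, 3.79 and 4.13 CPM with the label TBK1-cKD IKKe knockout. After R837 they held 5.57, 8.56 and 7.84 CPM, 10.3 ± 1.06 CPM, 10.7 ± 2.61 CPM, and 16.1, 16.3 and 9.96 CPM. By its mean the labelled group went from the lowest of the 4 to the highest, although its replicate 3 lay within the range of the TBK1-cKD control libraries. Its response, 2.21 ± 0.21 (adjusted p = 1.04e-08), exceeded that of TBK1-WT control (0.78 ± 0.21, adjusted p = 0.00322) by 1.43 ± 0.30 (adjusted p = 0.00145). The response was 1.19 ± 0.21 in TBK1-WT IKKe knockout and 0.79 ± 0.21 in TBK1-cKD control. With nuclear RNA level as a term, that of TBK1-WT control was 0.27 (adjusted p = 0.165), that of TBK1-WT IKKe knockout was 0.47 (adjusted p = 0.0446), that of TBK1-cKD control was 0.05 (adjusted p = 0.833) and that of the labelled group was 1.68 (adjusted p = 3.16e-09). Within the high nuclear RNA level Odc1 after R837 stood at 9.96 CPM with the label against 5.57 CPM in TBK1-WT control, and within the low level at 16.1 to 16.3 against 7.84 to 8.56 CPM. After R837 the labelled group exceeded TBK1-WT control by 1.16 ± 0.20 (adjusted p = 0.000107). It exceeded TBK1-cKD control by 0.56 ± 0.20 (adjusted p = 0.0359) and TBK1-WT IKKe knockout by 0.61 ± 0.20 (adjusted p = 0.0248), and each of the latter calls ended without replicate 1 or 2 of the label or without replicate 1 or 3 of the other group (adjusted p 0.0768 to 0.136). Another 11 genes share stretches of up to 276 bases with Odc1 at 98% identity or more, so its counts may include or lack reads of these copies.

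**Figure D3:**
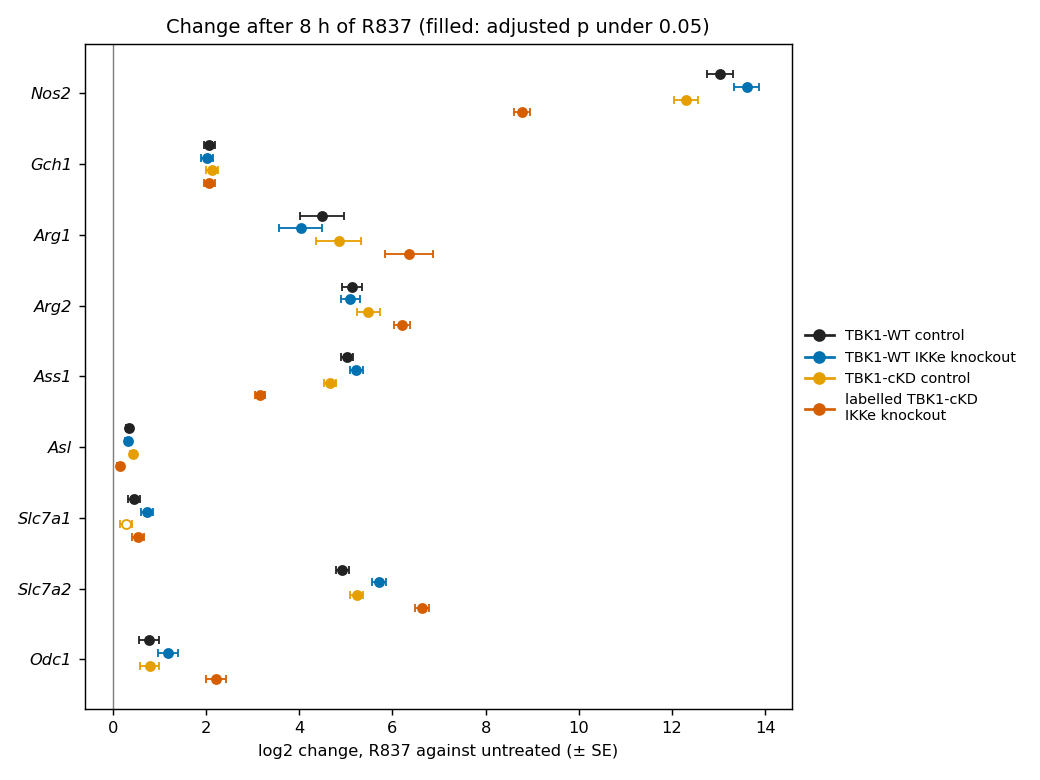
Log2 change from untreated to 8 h of R837 for each gene (± SE), 1 color per genotype, filled where the adjusted p was under 0.05. Nos2 changed most (8.77 to 13.6), Arg1, Arg2, Ass1 and Slc7a2 changed by 3.17 to 6.63, Gch1 by 2.02 to 2.13, and Asl and Slc7a1 by under 1.

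Counted over the 9 genes, 9, 9, 8 and 9 rose with R837 in TBK1-WT control, TBK1-WT IKKe knockout, TBK1-cKD control and the labelled TBK1-cKD IKKe knockout. Of all genes tested, 30.6%, 32.4%, 31.6% and 31.6% rose in these comparisons, 32.0%, 37.8%, 37.5% and 34.8% fell, and 62.6%, 70.2%, 69.1% and 66.5% changed in either direction. The median response of the 9 genes was 4.49 in TBK1-WT control, beside -0.04 for all genes tested, and 4.03, 4.66 and 3.17 in the other genotypes, beside -0.07, -0.08 and -0.07. Replacing TMM by plain library sizes lowers the median of all genes by 0.26 to 0.39 in these responses, which bears on Asl and Slc7a1 as described and leaves the calls of the other 7 genes in place.

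Among untreated cells, none of the 9 genes differed between TBK1-WT IKKe knockout and TBK1-WT control, where edgeR called 0 of 14681 genes (0.0%), DESeq2 called 1 and 422 genes had an unadjusted p under 0.05. In TBK1-cKD control only Slc7a2 was higher, 1 of 9 where 5.05% of all genes changed (2.4% higher, 2.65% lower). Alternatives raised this count to as many as 5. With the label TBK1-cKD IKKe knockout 5 were higher (Nos2, Gch1, Ass1, Arg2 and Slc7a2) and Slc7a1 was lower, where 13.6% of all genes changed (8.52% higher, 5.10% lower).

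After R837, TBK1-WT IKKe knockout exceeded TBK1-WT control in Nos2 and Slc7a2 (2 of 9, where 1.85% of all genes changed, 1.14% higher and 0.708% lower). TBK1-cKD control exceeded it in Nos2, Slc7a2 and Gch1 (3 of 9, where 8.89% changed, 4.48% higher and 4.41% lower). The labelled TBK1-cKD IKKe knockout exceeded it in 7 of 9, all but Asl and Slc7a1, where 32.2% changed, 16.7% higher and 15.5% lower. The same 7 genes were higher in it than in TBK1-cKD control (34.5% of all genes changed, 18.3% higher and 16.2% lower) and than in TBK1-WT IKKe knockout (30.6% changed, 16.5% higher and 14.2% lower), and in the latter comparison Slc7a1 was lower (-0.46 ± 0.13, adjusted p = 0.00864, and 0.137 in a fit on the 2 groups alone). These comparisons share the labelled libraries, and those with TBK1-WT control share its libraries. The change of response passed for no member in TBK1-WT IKKe knockout (0.245% of all genes passed, 0.129% upward and 0.116% downward) or TBK1-cKD control (0.879%, 0.674% upward and 0.204% downward). With the label TBK1-cKD IKKe knockout it passed upward for Arg1, Slc7a2 and Odc1 and downward for Nos2 and Ass1, where 17.3% of all genes passed, 7.38% upward and 9.96% downward. The interaction passed for Nos2, Arg2, Ass1 and Slc7a2, all upward, where 22.2% of all genes passed, 13.3% upward and 8.9% downward.

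Without the 2 R837 libraries of high nuclear RNA level, the excess of the labelled TBK1-cKD IKKe knockout over TBK1-WT control after R837 was 4.64 for Nos2, 2.94 for Slc7a2, 2.90 for Arg2, 1.63 for Ass1, 1.34 for Arg1, 1.20 for Odc1 and 0.95 for Gch1, and all 7 still passed. Within each nuclear RNA level, every labelled R837 library lay above every TBK1-WT control library for these 7 genes. Slc7a1 then passed downward (-0.19, adjusted p = 0.0338). With only the labelled replicate 3 left out, whose Ikbke was at 223 CPM, the 7 values ran from 1.05 (Gch1) to 4.60 (Nos2) and again passed, while Slc7a1 was at -0.10 (adjusted p = 0.375). In bulk RNA, more cells with a transcript and more transcript per cell cannot be told apart.

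**Figure D4:**
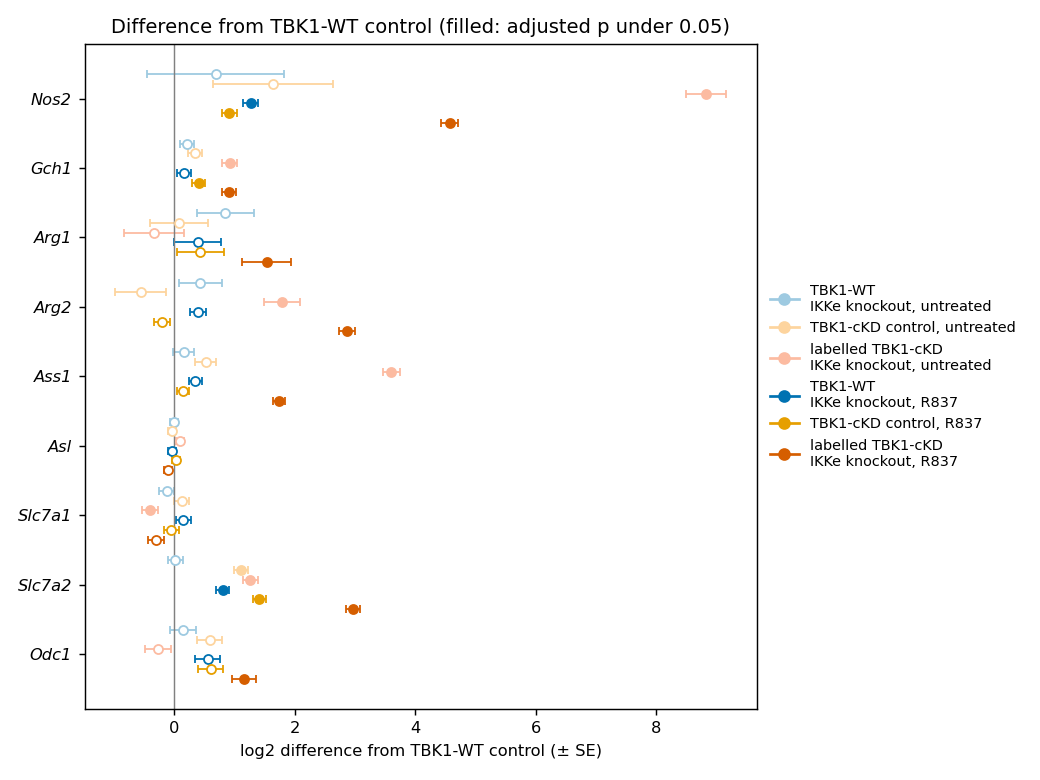
Log2 difference from TBK1-WT control for each gene (± SE), pale for untreated and dark for R837, 1 color per genotype, filled where the adjusted p was under 0.05. The labelled TBK1-cKD IKKe knockout stands furthest right for Nos2 (8.83 untreated, 4.58 after R837), and all 6 values of Asl lie between -0.11 and 0.09.

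Levels were set beside each other across genes by the deposited RPKM, which divides by gene length. In untreated TBK1-WT control the order was Asl (15.4 RPKM), Slc7a1 (7.90), Gch1 (6.37), Arg1 (3.22), Odc1 (2.06), Slc7a2 (1.65), Ass1 (0.547), Arg2 (0.108) and Nos2 (0.00334). After R837 it became Arg1 (61.2 ± 9.13 RPKM), Slc7a2 (42.9 ± 5.72), Nos2 (34.4 ± 1.92), Gch1 (22.8), Asl (16.8), Ass1 (15.2), Slc7a1 (9.20), Arg2 (3.26) and Odc1 (3.01). The place of Ass1 rests on its own reads alone, 25.4% of those of the pair with Gm5424 in this group, and is therefore uncertain. Asl went from rank 1 to rank 5 without a large change of its own. With the label TBK1-cKD IKKe knockout after R837 Nos2 came first at 712.5 ± 38.3 RPKM, followed by Slc7a2 (291.5 ± 21.6), Arg1 (154.7 ± 51.1), Ass1 (44.2 ± 2.79), Gch1 (37.3) and Arg2 (20.6 ± 1.89). Nos2 and Arg1 therefore stood at 34.4 and 61.2 RPKM in TBK1-WT control and at 712.5 and 154.7 RPKM in that group. In TBK1-WT IKKe knockout they were close, at 80.1 ± 7.31 and 77.3 ± 17.2 RPKM, and in TBK1-cKD control at 62.5 ± 12.7 and 79.7 ± 12.9 RPKM.

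The genes whose log2 CPM ran most like that of a member over the 24 libraries were found by Pearson's r, as a description of libraries that share treatment, genotype and nuclear RNA level. For Nos2 they were Ass1 (r = 0.995), Gm5424 (0.994) and the chemokine gene Cxcl2 (0.993). For Ass1 they were Gm5424 (0.998), the TNF receptor adaptor gene Traf1 (0.995) and Nos2. Reads of Ass1 and Gm5424 cannot be fully separated, so Gm5424 does not count as a separate gene in these orders. For Slc7a2 they were Acsl4 (0.995), Pdpn (0.995) and Fbxo22 (0.994), and for Gch1 Rnf149 (0.995), C9orf72 (0.994) and Alas1 (0.994). For Arg2 they were Spata13 (0.992), Scarf1 (0.990) and Trem1 (0.990), and for Arg1 the integrin gene Itga9 (0.985), Npepps (0.985) and Picalm (0.984). Odc1 was closest to Homer1 (0.971), Chst11 (0.964) and Ccl7 (0.959), Slc7a1 to Tspan14 (0.948), Ssr1 (0.940) and Yars (0.937), and Asl to Hexim1 (0.947), Xylt2 (0.945) and Maged2 (0.944). Among the members themselves, Nos2 and Arg1 had r = 0.874.

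The rest of the pathway was followed through 6 lists, 58 of whose 72 genes could be tested. In TBK1-WT control 22 rose and 19 fell with R837, where 30.6% of all genes rose and 32.0% fell, with a median change of -0.02 beside -0.04 for all genes. Of 5 tetrahydrobiopterin genes 0 rose and 1 fell. The other 4, among them Pts and Spr of the synthesis route after Gch1, did not pass. Gchfr, the feedback regulator of Gch1, had too few counts (0.0811 and 0.0673 CPM). Of 14 polyamine genes 6 rose and 5 fell: the polyamine oxidase Paox (-1.98), the S-adenosylmethionine decarboxylase Amd1 (1.37), the spermine synthase Sms (-1.02) and the transporter Atp13a3 (-0.92) moved most. Of 10 urea cycle and proline genes 3 rose and 2 fell, led by asparagine synthetase Asns (2.06), the proline dehydrogenase Prodh (-1.46) and the proline synthesis gene Pycr1 (1.02).

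Among 10 other users of arginine and methylarginine genes, 2 rose and 7 fell with R837 in TBK1-WT control. The citrullinating enzyme Padi2 (-2.63), Nos1 (-2.13, adjusted p = 0.04, under 1 CPM), Ddah2, which breaks down methylarginines (-1.70), and Padi4 (-1.64) moved most. Of 8 other transport and sensing genes 4 rose and 2 fell, with the y+L transporters Slc7a7 (1.65) and Slc7a6 (1.06), their partner Slc3a2 (0.91) and Slc66a1, a lysosomal exporter of cationic amino acids (0.56), as the largest changes. Of 11 genes for nitric oxide targets and removal 7 rose and 2 fell, led by heme oxygenase Hmox1 (3.46), Nostrin (-2.0013), the thioredoxin reductase Txnrd1 (1.53) and thioredoxin Txn1 (1.08).

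After R837, 10 of the 58 were higher and 13 lower in the labelled TBK1-cKD IKKe knockout than in TBK1-WT control, beside 16.7% higher and 15.5% lower among all genes. All 6 called of the 10 urea cycle and proline genes were lower there, among them Pycr1 (-1.10 ± 0.40), Aldh18a1, which begins proline synthesis from glutamate (-0.57 ± 0.13), the glutamine synthetase Glul (-0.45 ± 0.06) and Pycr3 (-0.45 ± 0.15). The list's median was -0.26, beside -0.01 for all genes. Of the polyamine genes Smox, the spermine oxidase, was higher (1.36 ± 0.13, adjusted p = 2.42e-08), at 156.5 ± 29.2 against 70.2 ± 8.81 CPM. Amd1 (-0.95 ± 0.16, adjusted p = 0.000103) and the spermidine synthase Srm (-0.74 ± 0.10, adjusted p = 3.44e-06) were lower, at 5.06 against 11.3 and 16.7 against 32.2 CPM. Thus Odc1 was higher while Srm, which acts after it, and Amd1, which also serves spermidine synthesis, were lower in the same comparison.

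Of the 11 genes tested for nitric oxide targets and removal, 6 were higher and 1 was lower in that comparison. The guanylate cyclase genes Gucy1a1, Gucy1a2 and Gucy1b1 of this list were not tested. They held 2, 1 and 1 counts in TBK1-WT control after R837 and 0, 0 and 3 with the label. Prkg1 was at 1.58 CPM in TBK1-WT control and 1.24 CPM with the label, and Adh5 at 89.1 and 82.7 CPM. Pde5a, a cyclic GMP phosphodiesterase, led (2.17 ± 0.25, adjusted p = 6.22e-07), from 2.21 to 8.72 CPM. Spsb1, an adaptor that targets the Nos2 protein for degradation, followed (1.42 ± 0.10, adjusted p = 6.81e-10), from 8.89 to 20.7 CPM. Hmox1 was higher (1.01 ± 0.11) and Nostrin lower (-1.03 ± 0.18). Of the other lists, Azin2 (0.90), Gamt of creatine synthesis (-0.48), Slc3a2 (0.45), Castor2, a cytosolic arginine sensor family member (-0.41), and Spr, which completes tetrahydrobiopterin (-0.37), were the called genes. In TBK1-cKD control, where 4.48% of all genes were higher, 5 of the 58 were higher after R837 (Hmox1 0.44, Txn1 0.36, Txnrd1 0.34, Dhps 0.26 and Glul 0.24) and in TBK1-WT IKKe knockout, where 1.85% of all genes changed, none passed.

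**Figure D5:**
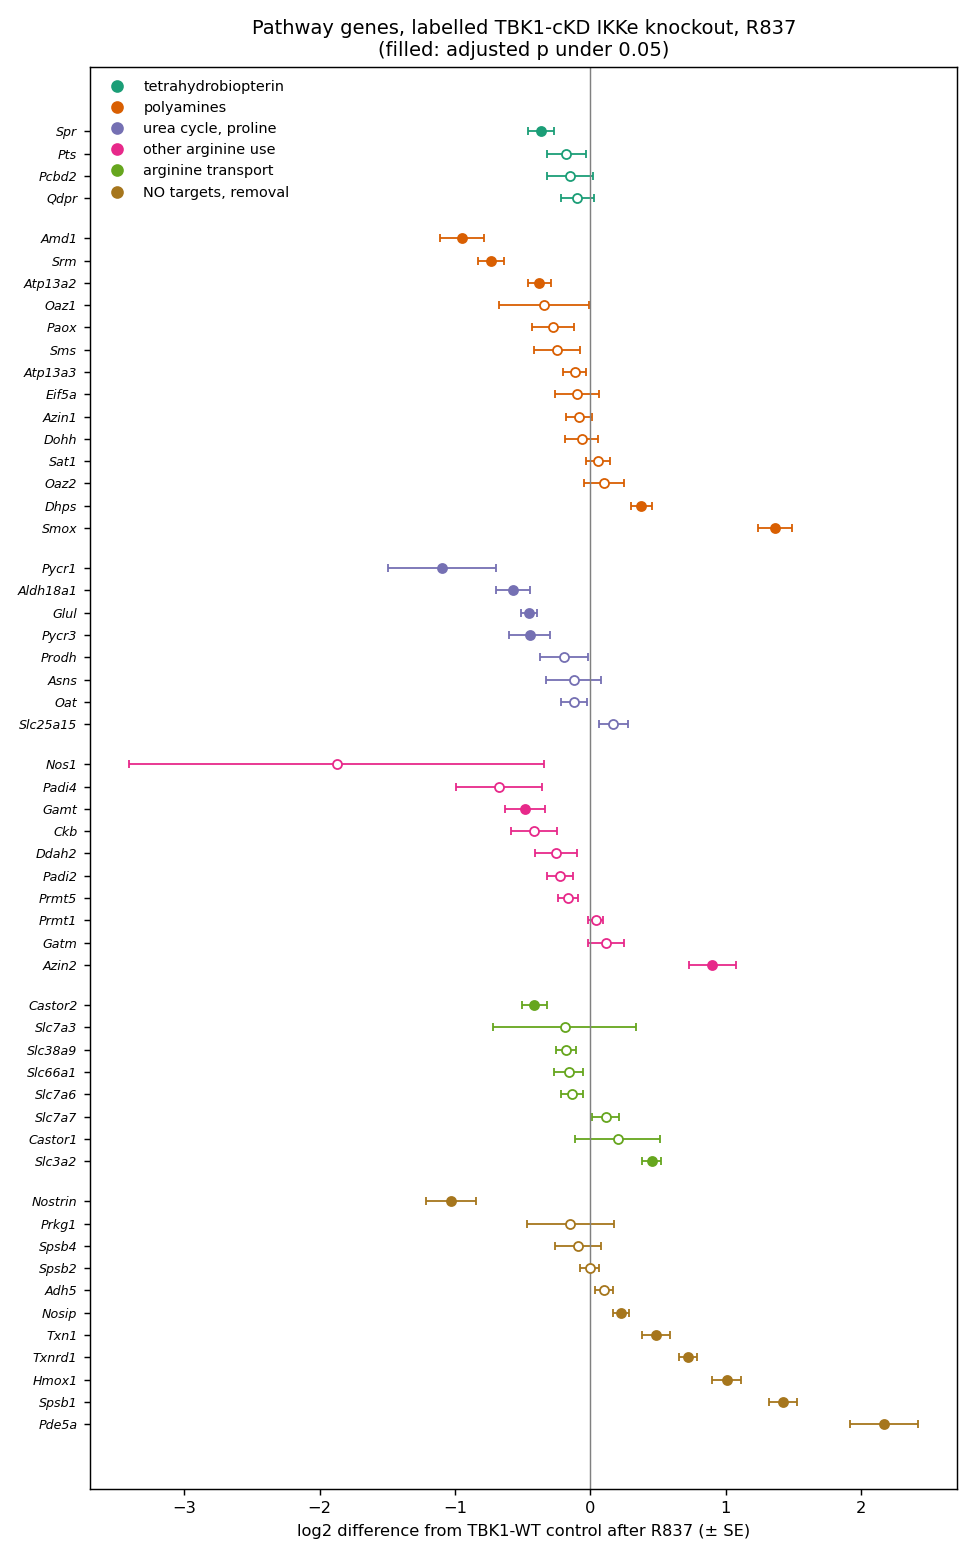
Log2 difference of the libraries with the label TBK1-cKD IKKe knockout from TBK1-WT control after R837 (± SE) for 55 of the 58 pathway genes tested, colored by list and filled where the adjusted p was under 0.05. The called genes plotted of the urea cycle and proline list lie left of 0 (-1.10 to -0.45), and Pde5a (2.17), Spsb1 (1.42) and Smox (1.36) lie furthest right.

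Among called genes, Pde5a, Smox and Spsb1 also lay furthest up against the other R837 groups. Over TBK1-cKD control, Pde5a (1.89), Smox (1.30) and Spsb1 (1.16) were higher and Gamt (-0.78), Glul (-0.70), Asns (-0.69) and Srm (-0.63) lower, with 8 of the 58 higher and 16 lower, beside 18.3% higher and 16.2% lower among all genes. Over TBK1-WT IKKe knockout, Pde5a (1.75), Spsb1 (1.31) and Smox (1.24) were higher and Amd1 (-0.99), Srm (-0.71) and Aldh18a1 (-0.67) lower, with 9 higher and 13 lower, beside 16.5% and 14.2%. In untreated cells with the label TBK1-cKD IKKe knockout 7 of the 58 were higher than in TBK1-WT control and 2 lower, beside 8.52% and 5.10% of all genes: Slc7a7 (0.61 ± 0.10, adjusted p = 0.000286) and Hmox1 (0.55 ± 0.11, adjusted p = 0.000777) were furthest up and Ddah2 (-0.41 ± 0.14, adjusted p = 0.0464) furthest down.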

How the data were processed

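Poly(A) libraries of an unstranded kit were sequenced as single-end reads, per the labels' protocols. Reads were aligned with GSNAP to GRCm38, per the submitters' processing notes. Not given in the sources used here are the counting program and the annotation release. The authors deposited, per gene, whole-number counts and RPKM. The counts were analysed and the RPKM values used only to compare genes per length; the deposited gene width was used as the length. CPM is the count per 1000000 gene counts of a library, and levels and ratios in CPM carry no TMM scaling except where it is named. Identifiers without a symbol (233 of 52636) held 0.0187% of counts.

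All 24 libraries (19.7 to 41.3 M counts) were fitted together, 1 mean per group, with edgeR 4.0.16 in R 4.3.3: TMM scaling, filterByExpr (minimum count 10, minimum total 15), the quasi-likelihood F test with 16 residual degrees of freedom, and Benjamini-Hochberg adjustment over the 14681 genes tested, at a threshold of 0.05. Fitted changes use a prior count of 0.125. SE is the log2 change divided by the root of F. 16 comparisons were made. Ratios of pooled counts carry exact 95% intervals, which cover counting error only. Gene positions, overlaps and copies are from GENCODE M21 (GRCm38). The members, lists and rules were chosen with earlier results of these data known: the 9 genes are named in every comparison, list genes by size of change among those called (4 in the TBK1-WT control response, 3 per comparison after R837, with a few more named after their values were seen), and the 3 genes most like each member. Alternatives were DESeq2 1.42.0, other scalings, no filter, fewer groups, nuclear RNA level and leaving out each library. The nuclear RNA level term is set by the R837 groups that hold both levels and carried over to the others. 0 columns of per-sample values were left unused. P-values of the main fit rest on the spread between mice within groups, estimated from all 8 groups together. In the R837 groups that hold both nuclear RNA levels, this spread includes the difference of level. A few genes of the lists are counted but not reported here by name.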

Additional observations from a re-analysis of the deposited data

Results flagged for a closer look

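The effect of a genotype differed between untreated and R837-treated cells, by a test of the difference itself, for 5 of the 9 genes in libraries with the label TBK1-cKD IKKe knockout against TBK1-WT control. The change of response was -4.2545 for Nos2, 1.8659 for Arg1, -1.8616 for Ass1, 1.7051 for Slc7a2 and 1.4333 for Odc1 on the log2 scale. Nos2 and Ass1, whose untreated levels were already raised, went down on this scale although both were highest in that group after R837. Untreated Slc7a2, Arg2 and Gch1 were raised as well, but Slc7a2 went up, and no change of response passed for Arg2 or Gch1. The value of Arg1 was near the threshold (adjusted p = 0.0479), and that of Nos2 rests on 2 counts in the control group.

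After R837 the effect of IKKe knockout differed between TBK1-cKD and TBK1-WT for 4 genes, by 2.3885 for Nos2, 2.6697 for Arg2, 1.2399 for Ass1 and 0.7501 for Slc7a2. All 4 are positive, and all rest on the label TBK1-cKD IKKe knockout.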

How the results depend on the processing

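Of 2167 values of the 9 genes under alternatives, 2045 stayed on the same side of the threshold, 64 lost a call, 57 gained one and 1 reversed: Asl in the response labelled TBK1-cKD IKKe knockout, at -0.2335 with plain library sizes, a scaling added after seeing the data, as was the sum of Ass1 and Gm5424. Of 478 counts, 411 stayed within 1.5 times. No paired analysis was possible because the labels give no replicate numbers.

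Counts of genes called moved as follows. Untreated TBK1-WT IKKe knockout against TBK1-WT control (0) gave 4 without the filter, 3 with nuclear RNA level as a term, 10 in libraries of high level alone, 3 without the high-level R837 libraries, 3 in the groups compared alone and 1 with DESeq2. Untreated TBK1-cKD control (742 genes, 1 member) gave 2042, 3012, 1927 and 2835 genes and 3, 5, 3 and 4 members with level as a term, in high-level libraries alone, without the high-level R837 libraries and in the groups compared alone, and the untreated labelled TBK1-cKD IKKe knockout (2000 genes) gave 3752, 4887, 3616 and 5461. After R837, fits on the groups compared alone gave 20 genes and 1 member for TBK1-WT IKKe knockout (272 and 2), 40 and 1 for TBK1-cKD control (1305 and 3), 2452, 1773 and 2940 genes for the labelled group against TBK1-WT control (4725), TBK1-cKD control (5067) and TBK1-WT IKKe knockout (4498), and 911 for the interaction (3253). The first of these gave 519 with level as a term and 492 with DESeq2. Change of response in TBK1-WT IKKe knockout (36 genes, 0 members) gave 146 with level as a term, 115 without the high-level R837 libraries, 23 in the groups compared and 123 with DESeq2, and 1 member, Slc7a2, under plain library sizes, no filter, level as a term, without the high-level R837 libraries and DESeq2. In TBK1-cKD control (129) it gave 442, 389, 17 and 261 genes, and in the labelled group (2546) 4420 with level as a term. The cause was not tested; fits on fewer groups hold fewer libraries.

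Leaving out 1 library gave 1969 to 4272 genes for the interaction, 132 to 355 for TBK1-WT IKKe knockout and 774 to 1751 for TBK1-cKD control after R837, 0 to 5 and 393 to 715 for the same groups untreated (1 to 2 members for the latter), and 18 to 37 genes with 0 to 1 members and 47 to 144 genes for their changes of response. Without TBK1-WT control R837 replicate 1 the interaction fell to 1969 and TBK1-cKD control to 774. Depth limits Nos2 and Arg2 in untreated cells.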
